A study of Mus musculus with 49 samples.

Results

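The cells described here are haploid mouse embryonic stem (ES) cells that the authors placed in early S phase from their chromosome contacts. They were chosen by the authors' group name, which follows measured values of each cell's contacts, among them the short-range share and the replication score that set its place in the order. The limits used are not given in the labels. A member is a cell of the haploid table that passed the authors' quality control and is named early-S, which gave 559 cells of 1247 passing and 1772 listed. Another 324 passing haploid cells were grouped as G1, 340 as late-S/G2, 21 as pre-M and 3 as post-M. Because the group was made from the contacts themselves, the values that set it are given below as a description and carry no test.

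Contacts between chromosome segments were measured by single-cell Hi-C, a method that joins DNA ends lying close together in a fixed nucleus and reads the joined pairs. The haploid line was H129-1, cultured in 2i without feeders or in medium with fetal bovine serum on feeder cells. Feeders were then depleted and cells positive for Oct-3/4, a protein of pluripotent cells, were sorted. Formaldehyde was the fixative, and part of the cells went through a sort on Hoechst, a DNA stain, and Geminin, a protein that accumulates from S phase onward.

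The table gives 3 conditions by name. The early-S cells came as 121 from 2i_all, 125 from 2i_G1 and 313 from Serum_G1/S. The labels do not define these names. By the names, 2i_all has no gate, 2i_G1 has a G1 gate and the serum cells have a G1/S gate. Every serum cell is Serum_G1/S, so growth medium, culture on feeders, sort and library set cannot be told apart. All cells come from 1 line, and the tables hold no expression values, so identity could not be checked against marker genes. The ploidy of single cells was not analysed here.

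Early-S cells occurred in 18 of the 20 haploid libraries, and 13 libraries held at least 10 of them. These were libraries 1, 3, 6, 7 and 8 of 2i_all, 11, 12, 13 and 14 of 2i_G1, and 17, 18, 19 and 20 of Serum_G1/S. Every test was two-sided and took libraries, never cells, as its units. Whether libraries came from separate cultures is not in the labels, so p-values measure the spread between these libraries only, which may be technical. Early-S cells made up 30.6% of passing 2i_all cells (exact Clopper-Pearson 95% interval 26.1% to 35.4%), 46.1% of 2i_G1 cells (40.1% to 52.3%) and 53.9% of Serum_G1/S cells (49.7% to 58.0%). The sorts act on these shares directly, and the intervals cover counting error only. A cell had a median of 96615 contacts (10051 to 582533), with medians of 44702 in 2i_all, 73199 in 2i_G1 and 167288 in Serum_G1/S. In the cell list 228 of 241 index pairs occurred in more than 1 haploid library, and no sequencing lane held more than 1 library.

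S phase is when a cell copies its genome, and gene-rich open regions are copied before compact ones. Chromosomes fold on several scales at once. Neighbouring stretches form domains whose borders hold back contacts, which is called insulation, and active (A) and inactive (B) regions each keep to their own kind, which is called compartment contrast. Copying passes through these structures while the cell is still in interphase, so a cell early in S carries copied and uncopied stretches side by side.

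The table describes each cell by its share of contacts in a short-range band, its share in a band named mitotic, a replication score, the share of contacts between chromosomes, the mean distance of far contacts, an alignment score, compartment scores within (cis) and between (trans) chromosomes, insulation, and 2 loop enrichments. The limits of the bands and the scales of the scores are not stated. In the 559 cells the short-range share ranged from 57.5% to 79.5%. It overlapped with both neighbouring groups, since 131 early-S cells lay at or below the highest G1 cell (64.1%) and 121 at or above the lowest late-S/G2 cell (73.4%). Going the other way, 97 G1 cells and 94 late-S/G2 cells lay inside the early-S range. A limit on this share alone therefore does not give the groups.

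At the edges of the group the cells did not change evenly in all features. The last 10 G1 cells of the authors' order had a median short-range share of 60.4% and the first 10 early-S cells 61.4%. The replication score, which the name ties to early-replicating regions and whose lowest haploid cell is 1, had a median of 1.12 on the G1 side and 1.02 on the early-S side of this edge. The far distance stepped down across it, from 39.5 Mb (36.1 to 41.3) to 30.2 Mb (23.3 to 38.0), and the alignment score stepped up from 0.0429 to 0.211. These last G1 cells all lay above the highest G1 library mean of far distance, 31.5 Mb in 2i_G1. Whether the order within G1 was made from the far distance was not tested, so both steps may be set by its construction. At the far edge no such step was seen in the ordering features. The last 10 early-S cells had a median short-range share of 76.8% and a replication score of 1.42, against 76.3% and 1.42 in the first 10 late-S/G2 cells, while the far distance was 26.4 Mb on the early side and 30.99 Mb on the late side.

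Within early S the order followed 2 of the columns almost exactly. The sum of the standardised short-range share and the standardised replication score ranked the 559 cells as the order did (Spearman's rho = 1.00 over cells), and each alone had a rho of 0.859 and 0.861. The courses of these 2 features along the order are thus set by its construction, and are not used as results. Neither the mitotic-band share, whose rho with the order was -0.379 to -0.775 in the 11 libraries with at least 20 cells, nor the other 12 features were needed to rebuild it.

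Seen beside the phases on either side, early S had the highest library means in far distance and in the share of contacts between chromosomes. In Serum_G1/S libraries the share between chromosomes was 8.23% ± 0.525 (SD, n = 4) in G1, 11.1% ± 0.350 (n = 4) in early S and 8.49% ± 0.438 (n = 4) in late S/G2. In 2i_all it was 6.24% ± 0.887 (n = 5) in early S and 5.16% ± 0.740 (n = 5) in late S/G2, and in 2i_G1 it was 5.43% ± 0.364 in G1 and 6.92% ± 0.0491 in early S (n = 4 each). Only 1 2i_all library had at least 10 G1 cells, and no 2i_G1 library had 10 late cells.

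Mean domain insulation over early-S cells lay above the G1 mean in 2i_G1 and below it in Serum_G1/S. In 2i_G1 it was 2.36 ± 0.0112 in G1 and 2.40 ± 0.0341 in early S (n = 4 each). In Serum_G1/S it was 2.43 ± 0.0235 in G1, 2.34 ± 0.0130 in early S and 2.18 ± 0.0174 in late S/G2 (n = 4 each), so in serum the early-S mean lay below the G1 mean. Cells did not sit at the same place within early S, since 63.6% of serum and 25.6% of 2i_G1 cells lay past the median of its order. Up to that median insulation was 2.46 in serum and 2.44 in 2i_G1, and past it 2.27 and 2.28 (n = 4 each). Both conditions were thus above their G1 mean on the early side and below it on the late side. With equal weight on both sides of that median, serum minus 2i_G1 in early-S insulation was 0.00398, against -0.0615 over all cells. In 2i_all it stood at 2.44 ± 0.0418 in early S and 2.18 ± 0.0329 in late S/G2 (n = 5 each). By late S/G2 the serum and 2i_all means were within 1 SD of each other. Compartment contrast within chromosomes was higher in each later phase for which a condition had libraries with at least 10 cells. Serum libraries had 0.313 ± 0.00111 in G1, 0.406 ± 0.00800 in early S and 0.437 ± 0.0220 in late S/G2. The 2i_G1 libraries had 0.257 ± 0.00839 in G1 and 0.341 ± 0.0274 in early S, with none in late S/G2. In 2i_all it was 0.291 in the 1 library with enough G1 cells, 0.353 ± 0.0136 in early S and 0.398 ± 0.0188 in late S/G2.

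**Figure D1:**
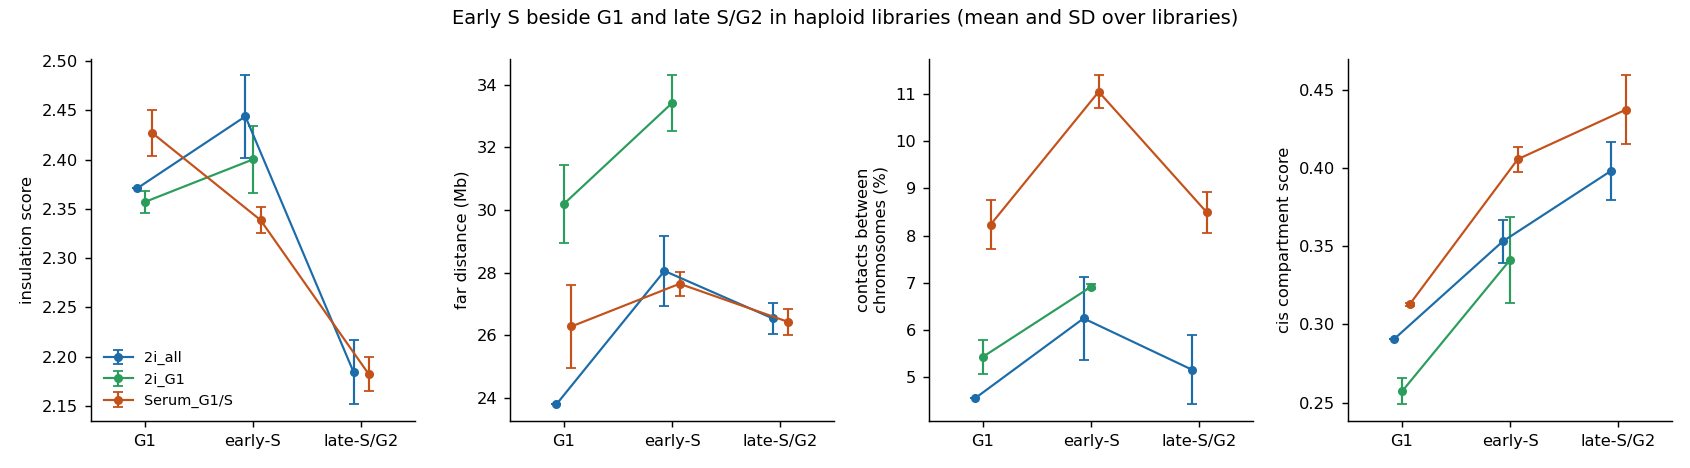
Mean and SD over haploid libraries that hold 10 or more cells in the phase, by condition, for insulation (score), far distance (Mb), share of contacts between chromosomes (%) and cis compartment score. The share between chromosomes peaks in early S at 11.1% in Serum_G1/S, and insulation there lies between its G1 and late-S/G2 values, while in 2i_G1 it lies above G1; the 2i_all point in G1 is a single library without error bar.

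Cell-to-cell spread also differed between phases, in features outside the grouping as well as inside it. Over the 9 libraries with at least 10 cells in both G1 and early S, the within-library SD of the replication score was 0.0504 in G1 and 0.0967 in early S, and was higher in early S in 9 of 9 libraries. The SD of insulation was likewise higher in 9 of 9, at 0.112 in G1 and 0.150 in early S. The SD of the far distance went the other way, at 5.35 Mb in G1 and 3.51 Mb in early S, and was higher in early S in 1 of 9. From early S to late S/G2 the SD of insulation was 0.145 and 0.129, higher in late cells in 4 of 9 libraries. Phases were assigned from the contacts, so these values are a description.

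Across all 559 cells, the share of contacts between chromosomes had a median of 8.36% and ranged from 2.82% to 19.9%. The far distance had a median of 28.5 Mb (19.1 to 41.96). The cis compartment score had a median of 0.380 (0.181 to 0.614), and the trans compartment score a median of 0.245 (-0.0420 to 0.471). Every cell but 2 had a trans score above 0, though what 0 stands for on this scale is not stated. Insulation had a median of 2.40 (1.94 to 2.93) and the replication score a median of 1.22 (1.00 to 1.54). The alignment score had a median of 0.269 (-0.0521 to 0.593), with 4 cells below 0. Counting error is a small part of this spread where it can be computed: binomial error in a cell's contacts gives 0.139% of the within-library variance of the share between chromosomes and 0.152% of that of the short-range share.

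Part of the spread lay between libraries. Of the variance of the 537 cells in the 13 libraries, 41.4% of that in the share between chromosomes, 32.2% of that in the far distance, 29.8% of that in the alignment score and 18.8% of that in the cis compartment score was between libraries. For insulation the part was 8.13%, for the trans compartment score 9.20%, and for the EE and LL loop enrichments 2.69% and 4.13%. Within Serum_G1/S the estimated part between libraries was 0 for the share between chromosomes, the far distance, the alignment score and insulation. For the share between chromosomes, the far distance and the alignment score it was 0%, 2.37% and 0% within 2i_G1. Within 2i_all it was 10.9%, 1.46% and 4.03%. The larger parts over all 13 libraries thus lay mostly between conditions for these features.

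Serum_G1/S libraries stood apart from the 2i libraries in 6 of 12 features at an adjusted p under 0.05 (50.0%), 4 of them higher and 2 lower in serum (exact permutation test over libraries, 4 against 9). These 12 leave out both contact bands and the replication score, which take part in the grouping or the order. The adjusted p-values below are over 13 features, the replication score among them (7 of 13 or 53.8% below 0.05, 38.5% higher and 15.4% lower, and 76.9% before adjustment), and no call on another feature differed between the 2 sets. The clearest was contact between chromosomes. Its share was 11.1%, 11.2%, 10.5% and 11.3% in serum libraries 17, 18, 19 and 20, against 6.94%, 6.97%, 6.85% and 6.91% in 2i_G1 libraries 11, 12, 13 and 14. In 2i_all libraries 1, 3, 6, 7 and 8 it was 6.72%, 6.82%, 7.07%, 5.58% and 5.04%. The lowest serum library was thus well above the highest 2i library, and the 4 2i_G1 libraries were nearly alike. The means were 11.1% ± 0.350 (SD, n = 4) and 6.54% ± 0.721 (n = 9), 4.51 points apart (exact p = 0.00140, the smallest that these libraries allow, adjusted p = 0.00364).

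Compartment contrast, the preference of A regions for A and of B regions for B, was higher in serum both within and between chromosomes. The cis score was 0.413, 0.394, 0.408 and 0.408 in serum libraries 17 to 20, 0.313, 0.354, 0.325 and 0.373 in 2i_G1 libraries 11 to 14, and 0.338, 0.360, 0.366, 0.339 and 0.362 in 2i_all libraries 1, 3, 6, 7 and 8. All 4 serum libraries lay above all 9 others (0.406 ± 0.00800 against 0.348 ± 0.0203, SD, exact adjusted p = 0.00364). The trans score was 0.257 ± 0.00508 in serum and 0.214 ± 0.0254 in 2i (exact adjusted p = 0.0212). The groups did not overlap there either, but they came close: library 7 of 2i_all had 0.247 and serum library 18 had 0.254.

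Insulation was lower in serum and the replication score higher. Insulation was 2.34, 2.35, 2.34 and 2.32 in serum libraries 17 to 20, 2.43, 2.42, 2.35 and 2.40 in 2i_G1 libraries 11 to 14, and 2.43, 2.39, 2.51, 2.46 and 2.44 in 2i_all libraries 1, 3, 6, 7 and 8. The groups all but touched, with library 13 of 2i_G1 at 2.3522 and serum library 18 at 2.3521. The means were 2.34 ± 0.0130 and 2.42 ± 0.0429 (exact adjusted p = 0.00364). The replication score was 1.25 ± 0.0221 in serum, from 1.23 to 1.28, and 1.17 ± 0.0358 in 2i, from 1.11 to 1.22, again without overlap. This score takes part in the order of the cells, so its difference is a description.

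Serum cells also lay further along the order. Of the early-S cells, 63.6% lay past the median of the order in Serum_G1/S, 39.7% in 2i_all and 25.6% in 2i_G1. With both sides of that median given equal weight in each library, the replication score differed by 0.0319, and insulation differed by -0.0387 and did not pass (exact adjusted p = 0.257). On the same footing the share between chromosomes (4.32 points, exact adjusted p = 0.00875), the cis score (0.0484, exact adjusted p = 0.0219) and the trans score (0.0268, exact adjusted p = 0.0225) still passed.

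Depth differed too, with 165028 ± 34577 contacts per cell in serum and 64844 ± 20748 in 2i libraries (exact adjusted p = 0.00364). The share without digestion, whose denominator is not stated, was 25.5% ± 0.517 in serum against 31.2% ± 4.33 in 2i (exact adjusted p = 0.0364). In cells with 50000 to 100000 contacts, a window chosen after the data were seen, which leaves 3 serum libraries, the share between chromosomes was 4.16 points higher in serum and the cis score 0.0728 higher (exact adjusted p = 0.0295 each). The trans score (0.0462, exact adjusted p = 0.128), insulation (-0.0364, exact adjusted p = 0.281) and share without digestion (2.67 points higher in serum, exact adjusted p = 0.479) did not pass in this window. The share without digestion also stopped passing without library 6, 8, 17, 18, 19 or 20, with differences from -5.94 to -5.14 points.

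**Figure D2:**
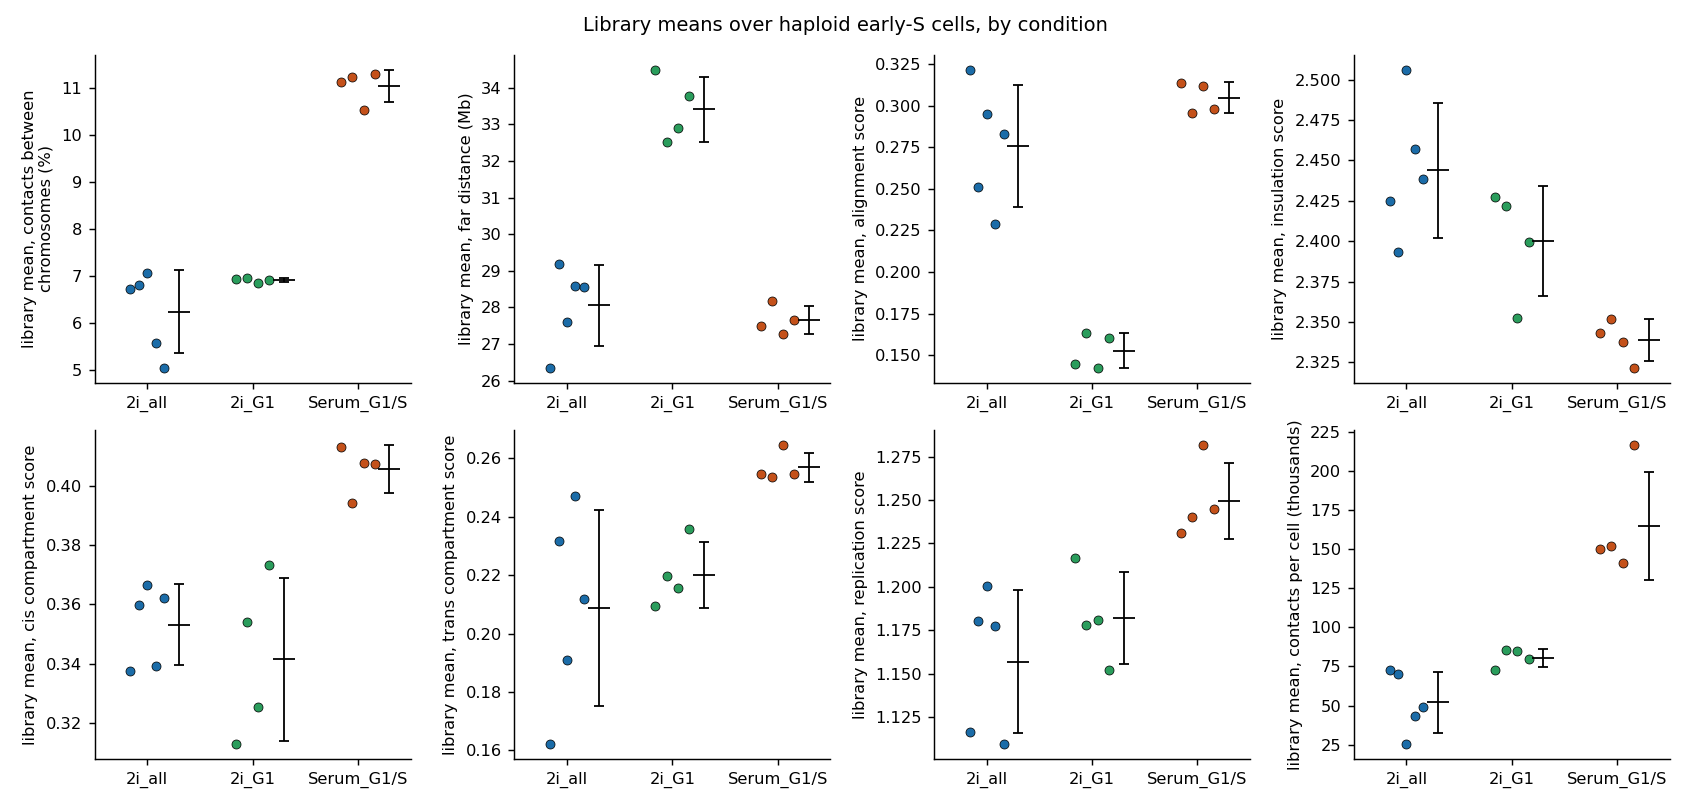
Library means over haploid early-S cells in the 3 conditions, for libraries with at least 10 such cells, with the mean and SD over libraries as a bar to the right of the points; axes do not start at 0. The 4 Serum_G1/S libraries lie between 10.5% and 11.3% in contacts between chromosomes, above all 2i libraries, and the 4 2i_G1 libraries lie apart from the others in far distance (32.5 to 34.5 Mb) and alignment score (0.142 to 0.163).

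The far distance and the alignment score lay apart between the 2i_G1 and 2i_all libraries. The far distance, the mean separation of contacts far apart on a chromosome, was 34.5, 32.5, 32.9 and 33.8 Mb in 2i_G1 libraries 11 to 14, 26.3, 29.2, 27.6, 28.6 and 28.5 Mb in 2i_all libraries 1, 3, 6, 7 and 8, and 27.5, 28.2, 27.3 and 27.7 Mb in serum libraries 17 to 20. The 2i_G1 libraries were all higher than the rest, while 2i_all and serum overlapped. The alignment score was lowest in 2i_G1, from 0.142 to 0.163, against 0.229 to 0.322 in 2i_all and 0.296 to 0.314 in serum. Between 2i_G1 and 2i_all the difference was 5.36 Mb in far distance and -0.123 in alignment score (exact p = 0.00794 each, the smallest for 4 against 5 libraries, adjusted p = 0.0557 over 39 tests). Contacts per cell differed between these 2 conditions as well, 80714 ± 5779 in 2i_G1 and 52147 ± 19558 in 2i_all (SD), without overlap. The conditions are held by different libraries, so sort, library set, depth and place along the order cannot be told apart.

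Over the 3 pairs of conditions, 0 of 39 differences passed an adjusted p of 0.05 (0%) by the exact permutation test, 23 (59.0%) had an unadjusted p under 0.05, and the libraries of both conditions did not overlap in 22 of 39 (56.4%). With the replication score left out these were 0, 21 and 20 of 36. The smallest p that 4 against 4 libraries allow is 0.0286, and with many tests at that limit the smallest adjusted p was 0.0557. Without 2i_all library 1, 3, 6 or 8 the count was 24, 24, 23 and 23 of 39, with at least 5 cells a library 18, and with at least 20 cells 25. By pair, the groups did not overlap in 3 of 13 features for 2i_G1 against 2i_all (23.1%), 7 of 13 for serum against 2i_all (53.8%) and 12 of 13 for serum against 2i_G1 (92.3%). In far distance and alignment score the serum libraries lay apart from 2i_G1, by -5.77 Mb and 0.152, and overlapped with 2i_all, from which they differed by -0.410 Mb and 0.0289. Joined over both 2i conditions these 2 features did not pass (exact adjusted p = 0.0937 and 0.0606).

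In G1 the same 4 2i_G1 libraries had a far distance of 30.2 ± 1.25 Mb and the 4 serum libraries 26.3 ± 1.33 Mb (SD), and no library of either lay within the range of the other there. Their alignment scores in G1 were 0.218 ± 0.0320 and 0.346 ± 0.0287.

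Loop enrichments are given for 2 sets of loops, named EE and LL, without further definition and read here as log2 values from their range. Over the 559 cells EE had a median of 1.00 and LL a median of 1.17, with 13 and 15 cells below 0. By library EE was 0.93 ± 0.04 in serum and 1.07 ± 0.13 in 2i (SD), and LL 1.13 ± 0.06 and 1.34 ± 0.19, and neither difference passed (exact adjusted p = 0.0682 each). Both values moved with depth. From the 140 cells with fewest contacts (10051 to 53696) to the 140 with most (182822 to 582533), mean EE went from 1.17 to 0.86 with an SD from 0.70 to 0.33, and mean LL from 1.59 to 0.94. The serum cells made up 32 of the 140 cells with fewest contacts and 133 of the 140 with most. In the window of 50000 to 100000 contacts, EE and LL were 0.0400 and 0.00946 higher in serum, the reverse of the sign over all cells.

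Uneven coverage of chromosomes split the serum cells into 2 ranges. The coverage deviation of a cell, by its column name the largest departure of any chromosome in coverage, lies below 1 in every passing haploid cell, whereas 190 of 525 cells that did not pass exceeded 1. In Serum_G1/S, 91 early-S cells lay between 0.1 and 0.2 and 49 between 0.2 and 0.3. Only 7 lay between 0.6 and 0.7, and then 41, 39 and 39 in the next steps of 0.1 up to 1. The serum distribution thus had a high range of its own.

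Above 0.5, a limit chosen after the data were seen, lay 40.7%, 39.1%, 42.3% and 55.6% of the cells in serum libraries 17 to 20. In 2i_G1 libraries 11 to 14 it was 8.70%, 0%, 2.70% and 4.00% (the 0 is 0 of 32 cells, exact upper limit 10.9%). In 2i_all the libraries disagreed, at 69.2% in library 1 (9 of 13 cells) and 41.7% in library 3, but 5.88%, 12.1% and 0% in libraries 6, 7 and 8. The mean deviation was 0.475 ± 0.0545 in serum and 0.320 ± 0.113 in 2i libraries, and the difference was not below the threshold (exact p = 0.0308, adjusted p = 0.05). Without library 1 or library 3 it passed (0.183 with adjusted p = 0.0131, and 0.174 with adjusted p = 0.0197, exact test).

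**Figure D3:**
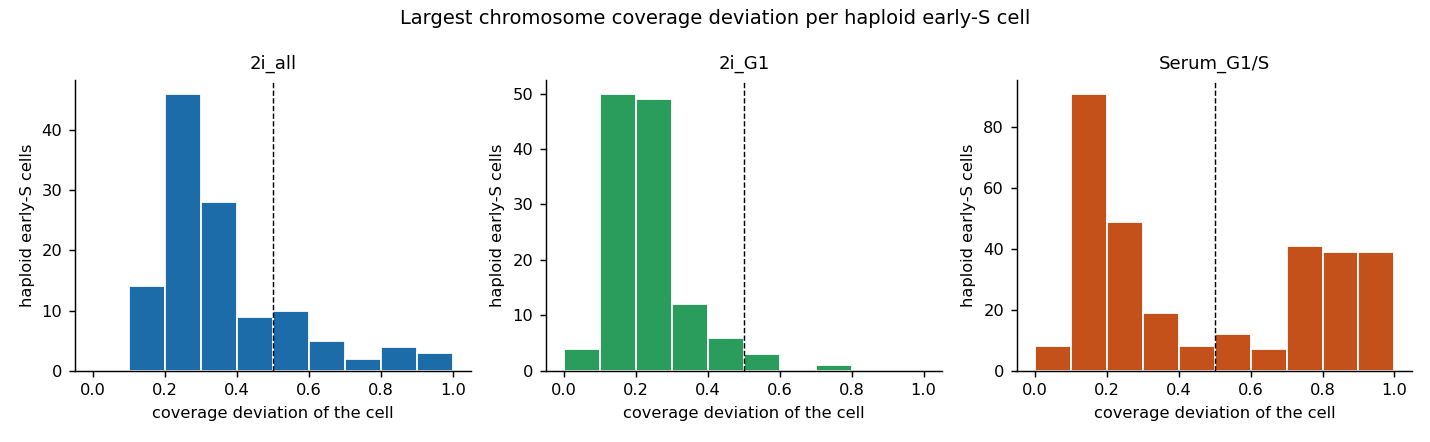
Number of haploid early-S cells by coverage deviation in steps of 0.1, by condition; the dashed line marks 0.5. In Serum_G1/S 138 of 313 cells lie above the line with few between 0.6 and 0.7, in 2i_all 24 of 121 and in 2i_G1 4 of 125.

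Of 15 features, 3 moved the same way in all 4 serum libraries from cells below 0.5 to those above, the coverage deviation itself aside. These were the cis score, the mitotic-band share, which takes part in the grouping or the order, and the EE enrichment. No test was run, and 4 libraries can agree in direction by chance. The share between chromosomes was 10.7% above and 11.4% below, lower above in 2 of 4 libraries, insulation 2.33 and 2.35, and the far distance 27.5 and 27.7 Mb. The cis score was 0.398 above and 0.411 below, lower above in 4 of 4 libraries, by 0.0130 ± 0.0116 on average (SD), and the mitotic-band share was 12.3% and 11.9%, higher above in 4 of 4. EE was 0.96 above and 0.91 below, higher above in 4 of 4, by 0.0441 ± 0.0199 (SD). With cells above 0.5 left out, the serum difference from 2i was 4.79 points in the share between chromosomes (exact adjusted p = 0.00438) and 0.0664 in the cis score (exact adjusted p = 0.00438).

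Cells of a serum library had a larger SD than cells of a 2i library in some features and a smaller one in 1, and the larger ones among features with a true zero went with larger means. The within-library SD differed at an adjusted p under 0.05 in 5 of 13 features (38.5%), 4 wider (30.8%) and 1 narrower (7.69%) in serum (exact permutation test over 4 and 9 libraries). With the replication score left out, which takes part in the order, it was 5 of 12 (41.7%), and no call on another feature differed. The libraries of both media did not overlap in 4 of 13 SDs (30.8%). For the share between chromosomes the SD over cells was 3.18, 3.48, 3.44 and 3.54 points in serum libraries 17 to 20, and 1.71, 1.34, 1.58 and 1.39 in 2i_G1 libraries 11 to 14. In 2i_all libraries 1, 3, 6, 7 and 8 it was 1.38, 2.46, 3.67, 1.79 and 1.50. Library 6, with 17 cells, was the single 2i library as wide as serum (3.41 ± 0.157 against 1.87 ± 0.759 points, exact adjusted p = 0.0182). The mean share was higher in serum as well. Relative to the mean, the coefficient of variation was 28.6% to 32.6% in serum and 19.2% to 51.9% in 2i libraries, and did not pass (30.9% ± 1.69 against 28.6% ± 10.5, exact adjusted p = 0.878 over 5 features with a true zero, a measure added after the data were seen).

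The trans compartment score was the feature with the narrower spread in serum. Its SD was 0.0548 to 0.0624 in serum libraries and 0.0629 to 0.0909 in 2i libraries, without overlap (0.0588 ± 0.00315 against 0.0799 ± 0.0107, exact adjusted p = 0.00455). Serum cells had more contacts. By quartile of contacts, from fewest to most, the SD of this score over all cells was 0.0895, 0.0787, 0.0525 and 0.0602. Serum cells made up 32, 37, 111 and 133 of the 139 or 140 cells in these quartiles, so depth and condition are mixed in them. The part of depth in the difference was not tested beyond the 25th to 75th percentile of contacts, where serum minus 2i was -0.0162 in SD without passing (exact adjusted p = 0.0929). The SD of contacts per cell, of the duplicated share and of the coverage deviation was wider in serum (exact adjusted p = 0.00455 each). The coefficient of variation was 48.9% ± 6.07 in serum and 51.9% ± 11.55 in 2i for contacts, and 44.8% ± 4.51 and 33.6% ± 13.3 for the duplicated share, neither past the threshold (exact adjusted p = 0.878 and 0.339). For the coverage deviation the SD over cells was 0.317 ± 0.0291 in serum against 0.137 ± 0.0518 in 2i. For insulation the SD was 0.161 ± 0.00283 in serum and 0.132 ± 0.0282 in 2i, and for the cis score 0.0652 and 0.0698, neither past the threshold (exact adjusted p = 0.164 and 0.508). The SD of the far distance, 3.34 Mb in serum and 3.64 Mb in 2i, did not pass either (exact adjusted p = 0.508).

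**Figure D4:**
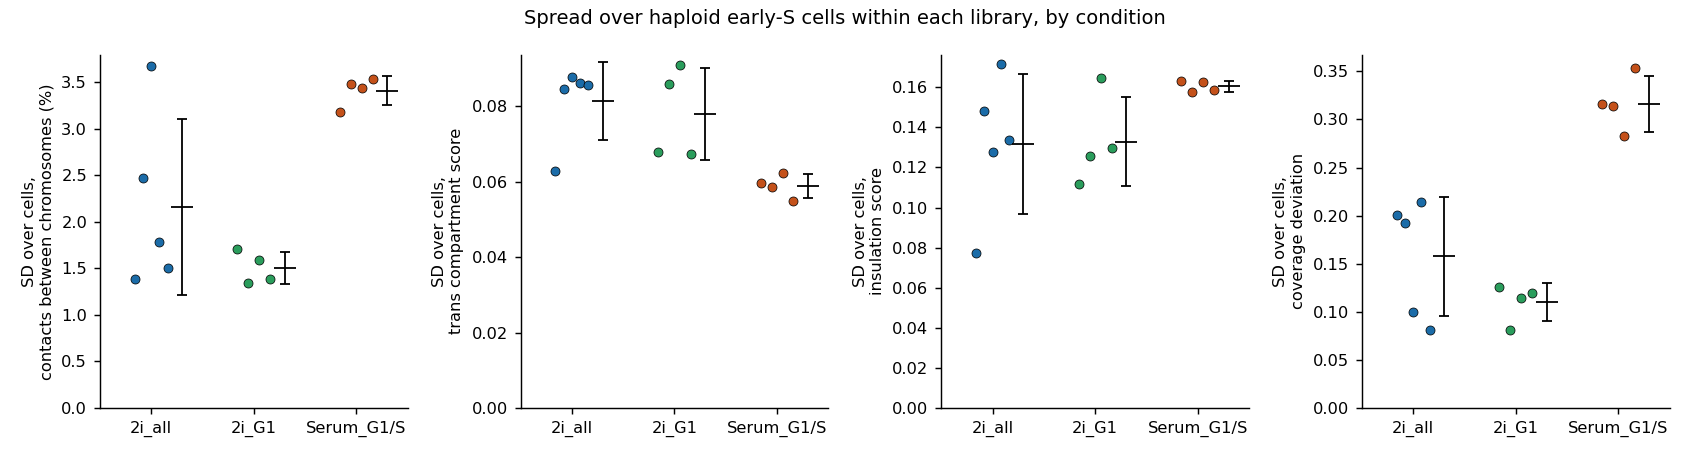
SD over haploid early-S cells within each library, by condition, for the share between chromosomes (points), trans compartment score, insulation and coverage deviation; bars to the right give mean and SD over libraries. The 4 serum libraries are lowest in the trans compartment score (0.0548 to 0.0624) and, in the share between chromosomes, above every 2i library but library 6.

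Along the order, from the G1 side to the late side, domain insulation went down. Over 5 successive bins of the order, of 111 or 112 cells each, its mean was 2.46, 2.45, 2.41, 2.31 and 2.23, so most of the drop came after the middle of the group. Per library, cells past the median of the order had lower insulation than cells before it in 11 of the 12 libraries with at least 5 cells on each side, with a mean difference of -0.134 ± 0.0799 (SD). The differences were -0.196, -0.198, -0.237 and -0.149 in serum libraries 17 to 20 and -0.144, -0.129, -0.216 and -0.158 in 2i_G1 libraries 11 to 14. In 2i_all libraries 3, 6, 7 and 8 they were -0.0835, -0.0362, -0.108 and 0.0427, so that library 8 was the exception and 2i_all had the smallest changes. Over these bins 2i_all cells went 2.42, 2.47, 2.498, 2.40 and 2.36, with a top in the middle bin, whereas Serum_G1/S cells went 2.49, 2.45, 2.37, 2.30 and 2.22 without one. Between media the courses of -0.195 in serum and -0.104 in 2i did not pass (exact adjusted p = 0.226).

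Compartment contrast went the other way. The cis score over the 5 bins was 0.343, 0.358, 0.388, 0.397 and 0.414, and it was higher past the median in 10 of 12 libraries (0.0259 ± 0.0301, SD). The exceptions were 2i_G1 libraries 11 and 13 (-0.0149 and -0.0345). By condition the bins did not rise steadily. They were 0.340, 0.313, 0.393, 0.358 and 0.356 in 2i_all and 0.318, 0.343, 0.373, 0.337 and 0.370 in 2i_G1. In Serum_G1/S they were 0.365, 0.400, 0.392, 0.421 and 0.427. The trans score was 0.205, 0.225, 0.251, 0.258 and 0.266, and higher past the median in 12 of 12 libraries (0.0294 ± 0.0172). The share of cells from serum was 47 of 112 in bin 1 and 90 of 112 in bin 5, so the courses over all cells mix conditions, which the values per library do not.

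The share between chromosomes was not steady along the order in serum. It was 8.92% in bin 1, 11.4%, 11.6% and 12.2% in the next ones and 10.6% in bin 5. Over libraries it was higher past the median in 9 of 12 (0.760 ± 1.08 points). The far distance was higher past the median in 5 of 12 (-0.465 ± 1.21 Mb). The alignment score was lower past it in 9 of 12 (-0.0156 ± 0.0379), among them all 4 of 2i_all. Its rho with the order did not go that way, with a median of 0.0391 in 11 libraries (-0.389 to 0.135). In 3 libraries of 2i_all the median rho was 0.0391 (-0.280 to 0.0602), so the direction rests on the measure. EE and LL enrichments were lower past the median in 9 and 7 of 12. In 2i_G1 the far distance was 34.2 Mb in bin 1 and 29.1 Mb in bin 5, which holds 6 of its cells.

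**Figure D5:**
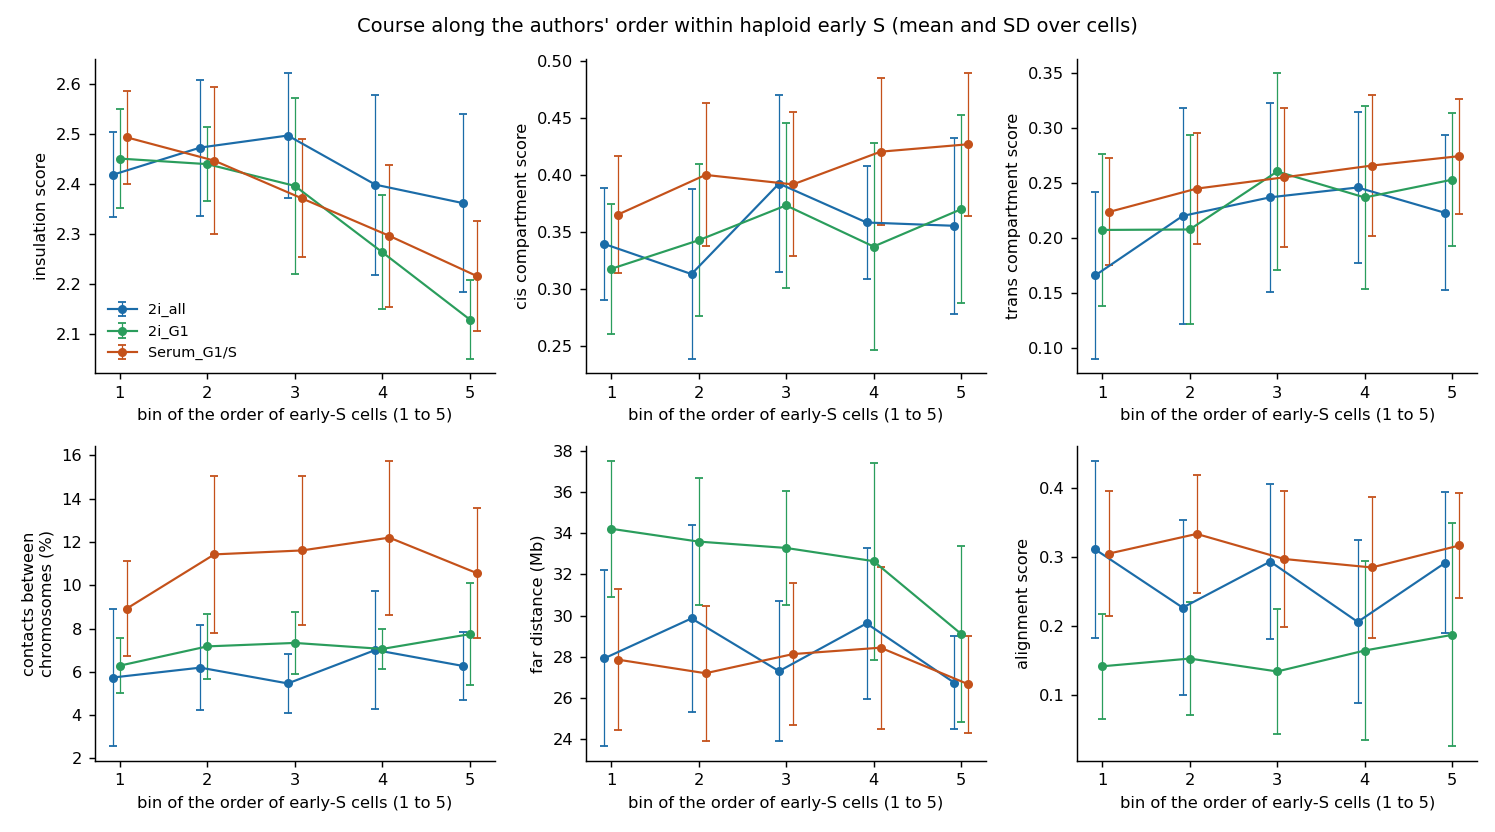
Mean and SD over haploid early-S cells in 5 successive bins of the authors' order, by condition, for 6 features that did not make the order. Insulation in Serum_G1/S goes from 2.49 to 2.22 and in 2i_all is highest in the middle bin (2.498), the trans compartment score is lowest in bin 1 of each condition, and bin 5 of 2i_G1 holds 6 cells.

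Of the 12 courses compared between serum and 2i, 1 differed at an adjusted p under 0.05 (8.33%). The duplicated share of fragment ends, which went with contacts per cell within libraries (median rho 0.902), was higher past the median in 12 of 12 libraries, by 0.461 ± 0.156 points in serum and 0.178 ± 0.0642 points in 2i (exact adjusted p = 0.0485). With Spearman's rho over cells in place of the difference of means the direction turned, to -0.0648 in serum minus 2i without passing. It passed without library 14 and in no other case of a library left out (0.222 to 0.349 points, exact adjusted p from 0.0727 to 0.145 in those cases), and with at least 10 cells on each side of the median 0 courses passed. Contacts per cell were higher past the median in 10 of 12 libraries, by 31383 ± 12637 in serum and 10966 ± 13582 in 2i (exact adjusted p = 0.226), and the course of contacts passed without library 14 (24644 more, exact adjusted p = 0.0182).

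Within single libraries some features varied together from cell to cell. These rho values were taken in the 11 libraries with at least 20 early-S cells, and the 2 features of a pair come from the same contacts of the same cell. Cells with a higher replication score had lower insulation in 11 of 11 libraries (median rho -0.524, from -0.758 to -0.0383), with a median of -0.621 in serum, -0.486 in 2i_G1 and -0.0957 in 2i_all. The replication score takes part in the order, so this relation and the course of insulation are not separate measurements. Cells with longer far contacts had lower alignment scores in 11 of 11 (median rho -0.707, from -0.827 to -0.237). The cis and trans compartment scores went together in 11 of 11 (median rho 0.431, from 0.187 to 0.526). EE and LL enrichments had a median rho of 0.0398, above 0 in 6 of 11, so the 2 loop sets did not share a ranking of cells. Contacts per cell had a median rho of 0.902 with the duplicated share, 0.315 with the share between chromosomes, 0.0969 with the replication score and -0.210 with insulation.

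Early-S cells of the haploid line in 2i were set beside early-S cells of the diploid F1 hybrid line in 2i, of which there were 882, in 5 features that do not depend on a score's scale. Of these, 4 differed at an adjusted p under 0.05 (80.0%) by an exact permutation test over 9 haploid and 16 diploid libraries, 3 lower (60.0%) and 1 higher (20.0%) in haploid cells. The diploid libraries join the conditions 1CDU and NoSort (4 each) and 1CD_G1, 1CD_eS, 1CD_mS and 1CD_lS_G2 (2 each). Their means ran from 34.8% (1CD_G1) to 48.1% (NoSort) without digestion, and from 5.87% (NoSort) to 8.17% (1CDU) between chromosomes. Line, sort and library set cannot be told apart here. Haploid cells had 64844 ± 20748 contacts against 189221 ± 68109, a duplicated share of 1.08% ± 0.437 against 3.27% ± 1.41 (exact adjusted p = 0.000268 each), and a share without digestion of 31.2% ± 4.33 against 39.2% ± 6.15 (exact adjusted p = 0.00411). The share between chromosomes was 6.54% ± 0.721 in haploid and 6.96% ± 1.13 in diploid libraries, a difference that missed the threshold (exact adjusted p = 0.334).

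The far distance was 30.4 ± 2.98 Mb in haploid and 28.4 ± 1.31 Mb in diploid libraries (exact adjusted p = 0.0332). With 2i_all and NoSort libraries alone, whose names give no gate, the difference was -0.669 Mb (exact adjusted p = 0.390), and over all libraries it stopped passing without haploid library 11, 12, 13 or 14, all of them 2i_G1, with differences from 1.50 to 1.75 Mb. Paired by the library numbers that both lines share (11, 12 and 13, replicate block), the haploid minus diploid difference was -55499.7 contacts per cell, -1.24 points in the duplicated share and 3.31 Mb in far distance, and 0 features passed, since 3 pairs allow no exact p below 0.250. The labels do not say that libraries with the same number share a batch. In the cell list these haploid libraries carry other batch numbers than in their titles.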

How the data were processed

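Reads were aligned with Bowtie2 to mm9, per the submitters' processing notes, and how the feature tables were made from them is not given in the sources used here. The haploid and diploid 2i tables and the cell list were used. Contacts per cell are a deposited count. Deposited shares are fraction values with unstated denominators, printed here in percent. Deposited scores have no stated scale, the far distance is deposited in bp and printed in Mb, and loop enrichments, deposited with no named scale, have the range of log2 values and are treated as such.

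Haploid batch numbers were joined to libraries through the cell list. Features were averaged over passing early-S cells in each library with at least 10, and library means were compared by two-sided exact permutation tests with Benjamini-Hochberg adjustment over the features of a comparison. Spread was the SD over cells of a library. The course was the mean past the median of the order minus the mean up to it, with at least 5 cells on each side. The precision is limited by 4 to 16 libraries a group and, per cell, by 10051 to 582533 contacts. Members, features and tests were chosen with earlier results of these data known. No gene is named, since the tables hold values per cell. Every folding and quality column was described, and libraries are named by number. Cell type markers could not be applied.

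Libraries of both lines with shared numbers (11, 12 and 13) deviated in part alike from their group means (correlation over 5 features 0.763, 0.424 and 0.336). No label makes them a batch, and 5 features cannot show one. The shared numbers are the only sign of pairing, so the replicate block is given beside that comparison as a description. Alternatives were minimums of 5 and 20 cells, medians or interquartile range, cells between the 25th and the 75th percentile of contacts, equal weight on both sides of the median order, 10 cells a side, rho, leave-one-out, libraries without a named sort and the block. Added after the data were seen were 50000 to 100000 contacts, coverage deviation below 0.5, 2i_all or 2i_G1 alone, the replication score left out, and the coefficient of variation. The 4 nuclear RNA samples and the diploid serum table were not analysed here. Tests ran in scipy 1.17.1 under Python 3.11.15, tables in pandas 2.3.3 with numpy 2.4.6, and plots in matplotlib 3.10.9. The test of serum against 2i was tested on simulated data of 200 features, 100 of them changed by 3 library SDs, and called 94% of the changed and 3% of the unchanged ones.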

Additional observations from a re-analysis of the deposited data

Results flagged for a closer look

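Of 90 groups of 4 or 5 library values, 8 held a library far from the others by Dixon's criterion, and chance gives about 1 in 20. Among Serum_G1/S libraries, library 20 had 216421 contacts per cell (141418 to 152146 in the others) and a duplicated share of 2.02% (1.47% to 1.48%), and library 19 a trans compartment score of 0.265 (0.254 to 0.255). Among 2i_G1 libraries, library 11 had a coverage deviation of 0.279 (0.222 to 0.224), and library 13 an SD over cells of 7.85 points in the share without digestion (5.52 to 5.89).

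Among 2i_all libraries, library 1 with 13 cells had the narrowest spread over cells in far distance, 2.60 Mb (3.79 to 4.14 in the others), and in the trans compartment score, 0.0629 (0.0846 to 0.0878). Library 6 with 17 cells had the widest spread in the cis compartment score, 0.0921 (0.0661 to 0.0679). The rise of the duplicated share along the order was 0.283 points larger in serum than in 2i libraries by the exact permutation test of the difference given above, and of the other sign with rho (-0.0648).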

How the results depend on the processing

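Apart from counts, other settings gave 398 values with the same direction and side of the threshold, 76 that newly passed, 22 that no longer passed and 39 of the other sign; leaving out 1 library gave 979, 101, 21 and 13. The cause was not tested for any of them. The depth of single cells and the number of cells and libraries limit these values, and the limits were not ranked. Counts that moved by over 1.5 times were, for pairs of conditions (0 of 39), 18 with at least 5 cells, 25 with at least 20, 7 with medians, 8 of 13 for cells between the 25th and the 75th percentile of contacts (1 pair left), and 0 to 24 with 1 library left out. For serum against 2i (7 of 13) they were 11 with at least 5 or 20 cells, 4 within the percentiles, 2 with 50000 to 100000 contacts and 12 against 2i_G1 alone. For spread (5) they were 3 within the percentiles, 3 with deviation below 0.5 and 0 of 5 with the coefficient of variation, which also turned the spread of contacts (-3.02 points). For the course (1) they were 0 with 10 cells a side, 0 with rho and 0 to 2 with 1 library left out. For haploid against diploid (4) they were 2 without a named sort and 0 with the replicate block, and the block turned no direction.

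The sign turned as follows, where no difference of the main comparison was past the threshold unless named. With rho, serum minus 2i courses were -0.209 for the share between chromosomes, -0.0354 far distance, 0.0262 alignment, 0.0285 LL, -0.0648 duplicated share (past the threshold before) and 0.0441 coverage deviation. With 50000 to 100000 contacts, serum minus 2i was 0.0400 in EE, 0.00946 in LL, -0.413 duplicated share, 2.67 share without digestion (past the threshold before) and -0.0165 coverage deviation. Serum minus 2i_all was there 0.10 in EE, 0.00591 in LL, -0.654 duplicated share, 0.891 share without digestion and -0.0968 coverage deviation, serum minus 2i_G1 was 0.0139 in LL, -0.111 duplicated share and 4.89 share without digestion, and 2i_G1 minus 2i_all 0.00135 in insulation and 0.14 in EE. Within the percentiles, serum minus 2i was 0.0420 in LL, -0.000348 duplicated share, and in spread 0.182 far distance and 0.00146 alignment, and haploid minus diploid 0.0602 points between chromosomes. Below a deviation of 0.5, the duplicated share of 2i_G1 minus 2i_all was 0.0355 and the cis spread of serum minus 2i 0.00324, or 0.0156 by interquartile range. With equal weight on both sides of the order, 2i_G1 minus 2i_all was 0.0551 in duplicated share and serum minus 2i_G1 0.00398 in insulation. Medians gave 2i_G1 minus 2i_all 0.0023 in LL and serum minus 2i_all 0.126 Mb. At least 20 cells gave 2i_G1 minus 2i_all -0.0101 in the trans score, 0.0346 in EE and 0.0930 duplicated share, at least 5 cells 0.14 in EE, and libraries without a named sort a haploid minus diploid far distance of -0.669 Mb. With 1 library left out, 2i_G1 minus 2i_all ranged from -0.00023 to 0.0210 in the trans score, -0.0956 to 0.0170 in EE and -0.333 to 0.0301 in duplicated share, and serum minus 2i from -0.00139 to 0.00754 in the spread of the replication score. Its courses ranged from -0.0150 to 0.00469 in alignment, -0.00062 to 0.00915 trans score, -0.116 to 0.00526 EE, -0.122 to 0.0284 LL and -0.0474 to 0.0143 coverage deviation.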
